A study of Mus musculus with 17 samples.

Results

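The insulin-like growth factor (IGF) system was examined in bulk RNA-sequencing of the mouse left ventricular apex through 9 genes chosen by symbol, the ligands Igf1 and Igf2, the receptors Igf1r and Igf2r, and the binding proteins Igfbp3, Igfbp4, Igfbp5, Igfbp6 and Igfbp7. All 9 were found among the 21798 genes of the deposited table, and all 9 passed the filter on low values. The 17 libraries came from young adult male C57Bl6/J mice in 4 groups, each 3 weeks after transverse aortic constriction (TAC), which loads the left ventricle with pressure, or a Sham operation without the ligation. The saline vehicle was gavaged to the 5 Sham Veh and the 3 TAC Veh mice, and repeated doses of 50 μg/kg of 29P, an oral prodrug of an RGD mimetic directed at αvβ3 integrin, to the 3 Sham 29P and the 6 TAC 29P mice. Dosing began after surgery, and Sham mice shared the anaesthesia and thoracotomy of the TAC mice. Before deposit the authors removed shallow libraries and a TAC Veh library that grouped with Sham mice, so the TAC Veh group is selected in part on its expression profile. The library names carry separate animal numbers, and each library is taken here as 1 animal.

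IGF1 and IGF2 are secreted growth factors that signal through the tyrosine kinase receptor encoded by Igf1r. The receptor encoded by Igf2r, also the cation-independent mannose 6-phosphate receptor, takes up IGF2 for degradation in lysosomes and does not transmit a growth signal of its own. IGF binding proteins hold the ligands outside the cell, lengthen their life and control their release by proteases, and IGFBP7 differs from the others in its low affinity for IGF. In the heart IGF1 is known for its role in physiological growth and cardiomyocyte survival, and much of it is made by non-myocytes such as fibroblasts and macrophages.

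The libraries held 14.2 to 23.8 M reads, estimated from the step between low values (median 20.4 M), and the shallowest was Sham 29P library S14. Values are CPM, read counts scaled to a fixed library total, of which the mitochondrial-encoded genes took 33.5 ± 3.64% (mean ± SD) in Sham Veh, 35.6 ± 3.83% in Sham 29P, 26.1 ± 2.22% in TAC Veh and 27.3 ± 1.69% in TAC 29P libraries. The median gene of the 16218 tested was 0.35 higher on the log2 scale in TAC Veh than in Sham Veh mice and 0.37 higher in TAC 29P than in Sham 29P mice, and the part of the mitochondrial share in this shift was not tested. The surgery differences of the members are therefore given also with TMM factors, which centre the libraries on their typical gene and lower the log2 differences of these comparisons by 0.32 and 0.36. Ventricular cardiomyocyte markers were present in all libraries (8 genes, summed level 42904 to 58976 CPM, most abundant Myh6).

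Libraries S19 and S20 (Sham Veh) and S18 (TAC 29P) went against the label of ventricular apex. The summed level of 4 atrial markers (Sln, Myl4, Myl7 and Bmp10, with Myl4 the most abundant) was 2543 CPM in S19, 2032 CPM in S20 and 1529 CPM in S18, against 0.352 to 5.75 CPM in the other 14 libraries. Bmp10 was at 514 CPM in S18, at 0.179 CPM in S19 and at 0 in S20. The same 3 libraries, and no others, form 1 of 4 runs of adjoining animal numbers, so atrial transcripts and this run cannot be told apart. The results of the members are given with and without these libraries.

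At baseline Igfbp7 and Igfbp4 had the highest mean levels of the members relative to exonic length, merged over all annotated transcripts of a gene. On the scale of CPM per kilobase of annotated exon, Igfbp7 stood at 90.8 ± 10.6 in Sham Veh mice (SD, n = 5), above every value of any other member. Igfbp4 (19.5 ± 7.24), Igfbp5 (12.8 ± 3.75), Igf2r (10.3 ± 2.59), Igfbp6 (9.29 ± 2.96) and Igfbp3 (7.22 ± 0.69) followed, and each overlapped its neighbour in this order. Both ligands and the signalling receptor were the lowest, with Igf2 at 4.14 ± 1.34, Igf1 at 1.81 ± 0.28 and Igf1r at 1.38 ± 0.19 CPM per kilobase. On this scale Igf2 lay above Igf1 in all Sham Veh libraries, while Igf1 and Igf1r overlapped. The order depends on the length used, and in CPM Igf1 was above Igf2 in S6 (15.3 against 14.8). In TAC Veh mice (n = 3) Igfbp7 was again first at 262 ± 76.3 CPM per kilobase, and the ligands had changed places, with Igf1 at 4.74 ± 1.45 and Igf2 at 2.86 ± 0.12 without overlap.

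**Figure D1:**
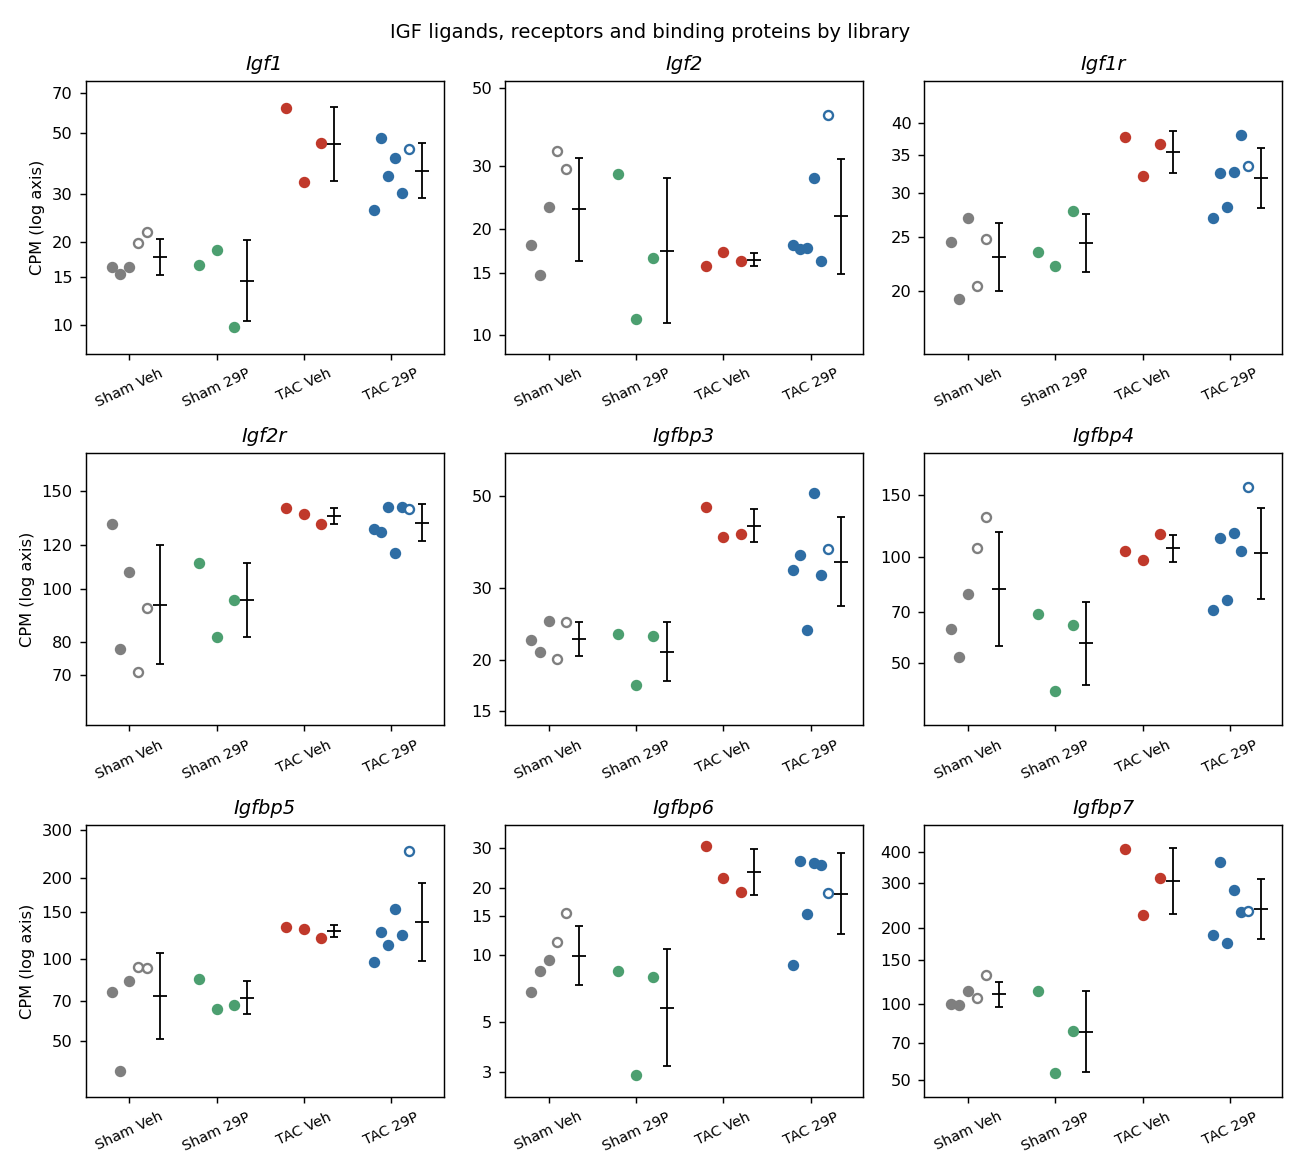
CPM of each IGF member in each library on log axes, by group (3 to 6 libraries each), with the geometric mean and 1 SD of log2 CPM beside the points. Open circles are libraries S18, S19 and S20, which hold atrial transcripts. All 9 TAC libraries lie above all 8 Sham libraries for Igf1, Igfbp5 and Igfbp7, and Igf2 shows no such separation.

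The comparison of TAC Veh with Sham Veh mice asked which members moved with pressure overload. At an adjusted p of 0.05 or less (limma, Benjamini-Hochberg over all genes tested) 7 of the 9 members rose, Igf1, Igf1r, Igf2r, Igfbp3, Igfbp5, Igfbp6 and Igfbp7, and none fell, where 22.5% of all genes tested were called higher and 1.91% lower. The median log2 fold change of the members was 0.79, and that of all genes 0.35. With TMM factors, 3 members were called higher (Igf1, Igfbp3 and Igfbp7), against 4.17% of all genes. In the TAC 29P against Sham 29P comparison 8 of 9 members rose, all but Igf2, beside 31.4% of all genes called higher, and with TMM factors 3 did (Igf1, Igfbp6 and Igfbp7), beside 5.72%. With a term for the animal-number run the count in 29P mice was 2, Igf1 and Igfbp7, and the adjusted p of Igf1r, Igf2r, Igfbp3, Igfbp4, Igfbp5 and Igfbp6 was 0.0613 to 0.136, while in Veh mice the count was 6, with Igf2r lost (adjusted p = 0.0735). The share of all genes called in that fit is not given here, so these counts do not set the members apart from other genes. The 2 comparisons use different libraries in both arms. Over both treatments together, 8 of 9 members rose, beside 49.4% of all genes, and 5 with TMM factors (Igf1, Igfbp3, Igfbp5, Igfbp6 and Igfbp7), beside 14%. Without any test, the TAC Veh libraries lay wholly above the Sham Veh libraries for 6 members, where 27.6% of all genes did. The TAC 29P libraries lay wholly above the Sham 29P libraries for 7 members, where 25% of all genes did, and all 9 TAC libraries lay above all 8 Sham libraries for 3 members, where 9.52% did.

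Without S18, S19 and S20 the count in Veh mice was again 7, with Igfbp4 in and Igf2r out (13.8% of all genes called higher), and the count in 29P mice was 7, with Igf1r out (31% of all genes). With TMM factors as well it was 3 in Veh mice (Igf1, Igfbp5 and Igfbp7, beside 3.14% of all genes) and 3 in 29P mice (Igf1, Igfbp6 and Igfbp7, beside 7.35%). Single libraries also decided calls, including that of Igfbp6 in 29P mice, which had the largest log2 fold change of the members there (1.70). In Veh mice the count fell to 3 without TAC Veh library S2 and to 4 without Sham Veh library S6 or TAC Veh library S12, and in 29P mice it fell to 2, Igf1 and Igfbp7, without Sham 29P library S14. Of 23 calls in other pathway lists in Veh mice 20 were also lost without S2, and of 24 in 29P mice 18 without S14. The share of all genes called is not given for these omissions, so the falls cannot be read as particular to the members.

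**Figure D2:**
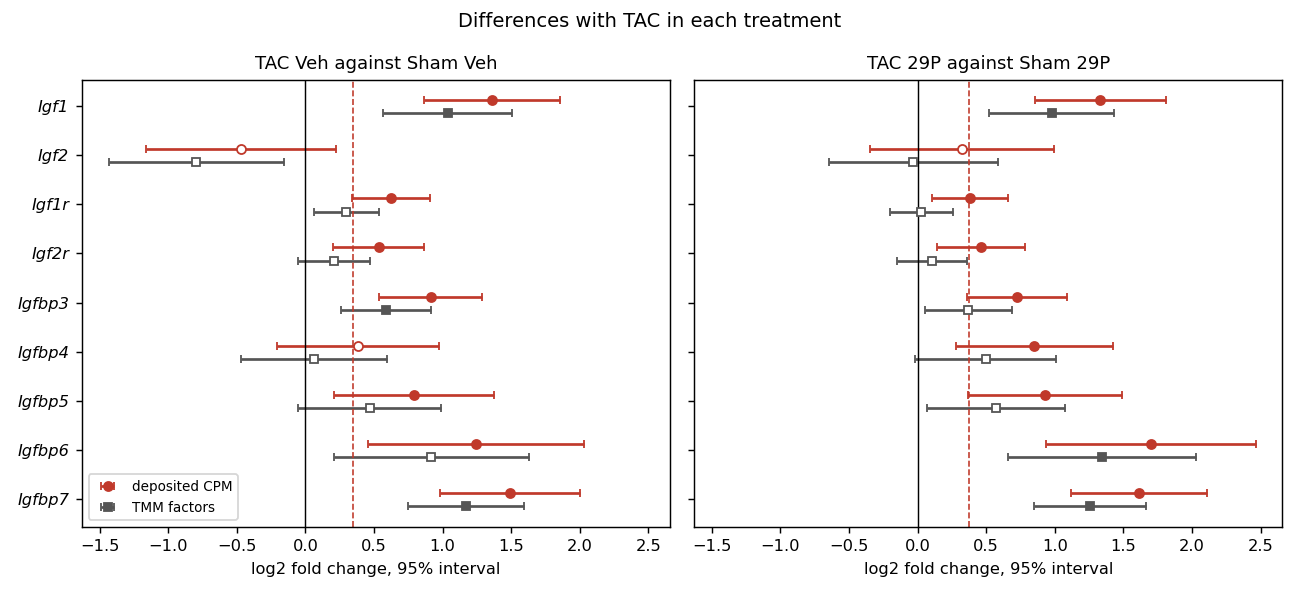
Log2 fold change of each member with its 95% interval (limma) in TAC Veh against Sham Veh mice and in TAC 29P against Sham 29P mice, from deposited CPM (circles) and with TMM factors (squares). Symbols are filled where the adjusted p was at most 0.05, and the dashed line marks the median of all genes tested on deposited CPM. Igf1 and Igfbp7 are filled on both scales in both panels, and Igf2 is open throughout.

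Of the ligands, Igf1 rose with TAC and Igf2 did not pass the test. Igf1 (chr10:87858265-87937042, plus strand, mm10) was at 16.3, 15.3, 16.3, 19.9 and 21.8 CPM in Sham Veh libraries S5, S6, S13, S19 and S20 and at 61.8, 33.2 and 46.0 CPM in TAC Veh libraries S2, S12 and S16. Sham 29P libraries S4, S14 and S15 were at 16.5, 18.7 and 9.85 CPM, and the 6 TAC 29P libraries ran from 26.2 to 48.1 CPM with a median of 37.7. Every TAC library was above every Sham library, and S2 was the highest of all. Igf1 was 2.57-fold higher in TAC Veh than in Sham Veh mice (95% interval 1.82 to 3.62, log2 fold change 1.36 ± 0.24 SE, adjusted p = 0.00194), and 1.04 on the log2 scale with TMM factors (adjusted p = 0.00795). In 29P mice the log2 fold change was 1.33 ± 0.23 (SE, adjusted p = 0.0021). The call held in each comparison when any 1 library was left out and when S18, S19 and S20 were left out together. Within the 4 runs of animal numbers the TAC mean exceeded the Sham mean by 0.93 to 2.22 on the log2 scale.

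Igf2 (chr7:142650766-142666816, minus strand), the fetal growth factor that is expressed from the paternal allele, was at 18.002, 14.8, 23.0, 33.2 and 29.4 CPM in Sham Veh libraries S5, S6, S13, S19 and S20 and at 28.5, 11.1 and 16.5 CPM in Sham 29P libraries S4, S14 and S15. The TAC Veh libraries lay close together at 15.7, 17.1 and 16.2 CPM, and the TAC 29P libraries ran from 16.2 to 41.9 CPM with a median of 17.8. All groups overlapped, and the highest value was that of S18. TAC Veh differed from Sham Veh mice by −0.47 ± 0.33 on the log2 scale (SE, adjusted p = 0.283), by −0.80 with TMM factors (adjusted p = 0.106) and by −0.16 without S18, S19 and S20. In TAC 29P against Sham 29P mice it was 0.32 on deposited CPM (adjusted p = 0.44) and −0.03 with TMM factors, so its sign depended on the scaling. As a share of the summed ligand level per kilobase, Igf1 made up 31.3 ± 4.58% (SD) in Sham Veh mice and 61.5 ± 8.31% in TAC Veh mice. Its share was 33.4 ± 13.9% in Sham 29P and 49.3 ± 8.12% in TAC 29P mice, which overlapped. The lowest TAC Veh share, 52.9%, was above the highest Sham Veh share, 37.4%. In annotation vM21 the Igf2 exons overlap those of Gm49394 on the same strand (62.8% of the exonic bases of Igf2), but Gm49394 had a mean level of 0.0298 CPM, so how reads were shared between them was not tested.

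Both receptors rose with TAC on deposited CPM in each treatment, and neither was called with TMM factors. Igf1r (chr7:67952827-68233668, plus strand) was at 24.5, 19.4, 27.1, 20.4 and 24.8 CPM in Sham Veh libraries S5, S6, S13, S19 and S20 and at 37.8, 32.2 and 36.7 CPM in TAC Veh libraries S2, S12 and S16, without overlap. Its 3 Sham 29P libraries ran from 22.2 to 27.9 CPM and its 6 TAC 29P libraries from 27.0 to 38.0 CPM, with S1, the lowest TAC 29P library, under S15. Igf1r was higher by 0.62 ± 0.14 on the log2 scale in Veh mice (SE, adjusted p = 0.00664) and 0.38 ± 0.13 in 29P mice (adjusted p = 0.0359), and with TMM factors 0.30 (adjusted p = 0.0981) and 0.03 (adjusted p = 0.891). Without S18, S19 and S20 the call remained in Veh mice (adjusted p = 0.0261) and was lost in 29P mice (adjusted p = 0.0576). It was also lost without S2 in Veh mice, and without S4, S14, S3, S9, S11 or S18 in 29P mice.

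Igf2r (chr17:12682406-12769664, minus strand) was at 131, 77.9, 107, 70.9 and 92.4 CPM in Sham Veh libraries S5, S6, S13, S19 and S20, a wide spread, and at 139.6, 136 and 130.8 CPM in TAC Veh libraries S2, S12 and S16. TAC 29P libraries ran from 116 to 141 CPM and Sham 29P libraries from 82.0 to 111 CPM. The groups overlapped in Veh mice through S5 alone and did not overlap in 29P mice. Igf2r was higher on the log2 scale by 0.53 ± 0.16 in Veh mice (SE, adjusted p = 0.0237) and 0.46 ± 0.15 in 29P mice (adjusted p = 0.0313), and 0.21 and 0.11 with TMM factors. In Veh mice the call was lost without S18, S19 and S20 (log2 fold change 0.39, adjusted p = 0.103) and without S6, S19, S2, S12 or S16 singly, and in 29P mice without S14, S15, S8 or S11. The ratio of Igf1r to Igf2r per kilobase was 0.138 ± 0.021 in Sham Veh, 0.143 ± 0.023 in Sham 29P, 0.146 ± 0.013 in TAC Veh and 0.135 ± 0.018 in TAC 29P mice (SD), with overlap of all 4 groups. The antisense transcript Airn, which lies in the Igf2r locus and silences the paternal Igf2r allele in many tissues, had a mean level of 6.6 CPM and shares no annotated exonic base with Igf2r.

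Igfbp7 showed the steepest change of the 9 members in Veh mice. The encoded protein is secreted, binds the vessel basement membrane and matrix, and is known as a circulating marker in heart failure. Igfbp7 (chr5:77349240-77408041, minus strand) was at 100.02, 99.4, 113, 106 and 130.6 CPM in Sham Veh libraries S5, S6, S13, S19 and S20 and at 409, 225 and 314 CPM in TAC Veh libraries S2, S12 and S16. Sham 29P libraries S4, S14 and S15 were at 112, 53.6 and 78.1 CPM, and the TAC 29P libraries ran from 174 to 363 CPM with a median of 233. No TAC library overlapped with a Sham library. The fold change was 2.81 in Veh mice (95% interval 1.97 to 4.01, log2 fold change 1.49 ± 0.24 SE, adjusted p = 0.00158) and 3.06 in 29P mice (2.17 to 4.31, adjusted p = 0.000902), and with TMM factors the log2 fold changes were 1.17 and 1.26 (adjusted p = 0.00201 and 0.00194). Both calls held when any 1 library, or S18, S19 and S20 together, were left out. Of its exonic bases, 7.03% are shared with Polr2b on the opposite strand, and the strand setting of the counting is not given in the sources used here. As a share of the summed level per kilobase of the 5 binding proteins measured here, Igfbp7 made up 65.5 ± 4.39% in Sham Veh, 63.3 ± 3.65% in Sham 29P, 75.8 ± 4.39% in TAC Veh and 72.2 ± 4.75% in TAC 29P mice (SD). The groups of Veh mice touched only in so far as the highest Sham Veh share, 71.7%, exceeded the lowest TAC Veh share, 70.9%.

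Igfbp6 encodes a binding protein with a preference for IGF2. It lies at chr15:102144362-102149511 on the plus strand and had the lowest CPM of the members in Sham Veh mice, with 6.86, 8.46, 9.51, 11.4 and 15.4 CPM in Sham Veh libraries S5, S6, S13, S19 and S20 and 30.6, 22.1 and 19.2 CPM in TAC Veh libraries S2, S12 and S16. Sham 29P libraries S4, S14 and S15 were at 8.44, 2.89 and 7.98 CPM and TAC 29P libraries at 9.03 to 26.2 CPM, with a median of 22.1. The groups did not overlap within either treatment, and S14 was the lowest library of all. On the log2 scale the difference was 1.24 ± 0.38 in Veh mice (SE, adjusted p = 0.0261) and 1.70 ± 0.36 in 29P mice (adjusted p = 0.00505), and with TMM factors 0.92 (adjusted p = 0.0941) and 1.34 (adjusted p = 0.0164). The call in Veh mice was lost without S6, S2 or S12, and that in 29P mice without S14 (log2 fold change 1.20).

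Igfbp3, the main carrier of IGF in the circulation, lies at chr11:7206086-7213923 on the minus strand. It was at 22.4, 20.9, 24.9, 20.2 and 24.7 CPM in Sham Veh libraries S5, S6, S13, S19 and S20 and at 47.1, 39.9 and 40.5 CPM in TAC Veh libraries S2, S12 and S16. Sham 29P libraries S4, S14 and S15 were at 23.1, 17.3 and 22.9 CPM, and TAC 29P libraries ran from 23.7 to 51.0 CPM with a median of 34.5. The lowest TAC 29P library, S8, was below some Sham Veh libraries but above all Sham 29P libraries. Igfbp3 was higher by 0.91 ± 0.18 on the log2 scale in Veh mice (SE, adjusted p = 0.00403) and 0.72 ± 0.17 in 29P mice (adjusted p = 0.00849). With TMM factors it was 0.59 (adjusted p = 0.0231) and 0.37 (adjusted p = 0.113), and the first of these was not called without S18, S19 and S20 (adjusted p = 0.0766). On deposited CPM the call in 29P mice was lost without S14.

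Igfbp5, which binds matrix as well as IGF, lies at chr1:72857932-72874884 on the minus strand. It was at 76.0, 38.7, 82.9, 93.9 and 92.6 CPM in Sham Veh libraries S5, S6, S13, S19 and S20 and at 132, 129 and 119.7 CPM in TAC Veh libraries S2, S12 and S16. Sham 29P libraries S4, S14 and S15 were at 84.9, 65.3 and 67.7 CPM, and TAC 29P libraries ran from 97.5 to 252 CPM with a median of 125. Every TAC library was above every Sham library, S18 was the highest and S6 the lowest. Log2 fold changes were 0.79 ± 0.28 in Veh mice (SE, adjusted p = 0.0458) and 0.93 ± 0.27 in 29P mice (adjusted p = 0.0187), and with TMM factors 0.47 (adjusted p = 0.24) and 0.57 (adjusted p = 0.123). Without S18, S19 and S20 it was 1.02 in Veh mice (adjusted p = 0.0158), and 0.70 with TMM factors (adjusted p = 0.0337). With all other libraries in place, the call in Veh mice was lost without any of S5, S6, S15, S2, S12, S16, S3, S8, S9 or S11, and that in 29P mice without S14 or S15.

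Igfbp4, whose product restrains IGF until it is cleaved by the protease PAPP-A, lies at chr11:99041244-99054392 on the plus strand. It was at 62.6, 52.1, 78.8, 106 and 129.9 CPM in Sham Veh libraries S5, S6, S13, S19 and S20 and at 104, 98.2 and 117 CPM in TAC Veh libraries S2, S12 and S16. The atrial libraries S19 and S20 were the ones that overlapped with TAC Veh. In Veh mice it differed by 0.39 ± 0.28 on the log2 scale (SE, adjusted p = 0.304) with all libraries and 0.74 ± 0.23 without S18, S19 and S20 (adjusted p = 0.0427), and 0.41 (adjusted p = 0.188) with TMM factors as well. Sham 29P libraries S4, S14 and S15 were at 68.9, 41.7 and 64.5 CPM and TAC 29P libraries ran from 70.9 to 159 CPM with a median of 109, without overlap. In 29P mice Igfbp4 was higher by 0.85 ± 0.27 on the log2 scale (SE, adjusted p = 0.0277), 0.72 without S18, S19 and S20 (adjusted p = 0.019) and 0.49 with TMM factors (adjusted p = 0.186), and the call was lost without S14 or S3.

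The 250 bases before the RefSeq start of 3 binding protein genes that rose in both treatments are shown, on build GRCm38.p6 and on the strand of each gene, because these genes were the ones called with TMM factors in at least 1 treatment. Capitals mark matches to the 2 motifs found in them, the GC box GGGCGG and the TATA box TATAAA, on either strand.
Igfbp7 (chr5:77408046-77408295, minus strand): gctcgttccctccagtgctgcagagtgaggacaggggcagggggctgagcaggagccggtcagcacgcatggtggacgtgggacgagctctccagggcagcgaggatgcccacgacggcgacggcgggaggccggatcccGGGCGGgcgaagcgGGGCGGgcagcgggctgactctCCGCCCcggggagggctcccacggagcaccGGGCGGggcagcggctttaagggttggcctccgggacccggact
Igfbp6 (chr15:102143936-102144185, plus strand): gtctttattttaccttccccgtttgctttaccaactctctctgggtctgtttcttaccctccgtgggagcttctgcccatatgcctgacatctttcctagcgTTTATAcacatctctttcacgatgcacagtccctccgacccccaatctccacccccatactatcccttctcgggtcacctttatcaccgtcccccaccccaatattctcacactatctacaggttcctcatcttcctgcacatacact
Igfbp3 (chr11:7213924-7214173, minus strand): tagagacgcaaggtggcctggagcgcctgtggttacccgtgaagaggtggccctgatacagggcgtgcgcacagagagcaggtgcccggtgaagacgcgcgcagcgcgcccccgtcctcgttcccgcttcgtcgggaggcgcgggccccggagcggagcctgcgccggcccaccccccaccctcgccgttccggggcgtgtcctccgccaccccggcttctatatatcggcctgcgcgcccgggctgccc
Igfbp7 held 4 GC boxes, 3 on its own strand and 1 on the other, and 32.7% of 32851 RefSeq windows of this length held at least 1. Igfbp6 held TATAAA on the other strand, which 12.4% of windows did. No match to the AP-1 motif TGANTCA (6.75% of windows), the TEAD motif GGAATG (12.6%) or the E-box CACGTG (6.02%) was found in the 3 windows. Igfbp3 held no exact match to any of the 5 motifs. Looser forms of the TATA box, such as the tatata near the end of the Igfbp3 window, were not searched. Their GC content was 74% in Igfbp7, 73.2% in Igfbp3 and 49.6% in Igfbp6, beside a median of 52.4% of all windows.

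Within each run of animal numbers the mean of the TAC libraries was above that of the Sham libraries for 8 of 9 members in 4 of 4 runs. Igf2 was higher in TAC in 2 of 4 runs, with log2 differences of −0.09 to 0.42. The longest run holds 6 TAC and 3 Sham libraries, and the others hold 1 TAC library each, so no test was made within them.

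The comparison of TAC 29P with TAC Veh mice asked whether the treatment altered the members under pressure overload. Of the 6 TAC 29P libraries 5 came from the longest run of animal numbers and S18 from that of the atrial libraries. Of the 3 TAC Veh libraries only S2 came from the longest run, and S12 and S16 came from runs without TAC 29P libraries. Treatment and run therefore cannot be fully told apart here. None of the 9 was called at an adjusted p of 0.05 (0% of all genes tested were), and none reached an unadjusted p of 0.05, which 1.98% of all genes did. The members were also at an unadjusted p above 0.05 with TMM factors and without S18, S19 and S20. Igfbp7 was at a log2 fold change of −0.37 ± 0.24 (SE, 95% interval −0.86 to 0.13), and 2 of 6 TAC 29P libraries were below all 3 TAC Veh libraries. That of Igf1 was −0.32 ± 0.23 (95% interval −0.80 to 0.16), also with 2 of 6 libraries below. Both values turned on single TAC Veh libraries, at −0.59 for Igfbp7 and −0.55 for Igf1 without S12 and at −0.16 and −0.10 without S2. That of Igfbp3 was −0.29 ± 0.17 (95% interval −0.66 to 0.07), with 5 of 6 libraries below all TAC Veh libraries and S9 above them. Igfbp6 was at −0.32 (−1.09 to 0.44), Igf1r at −0.16 (−0.43 to 0.12), Igf2r at −0.04 (−0.36 to 0.28) and Igfbp4 at −0.05 (−0.62 to 0.52). Igf2 at 0.41 (−0.26 to 1.08) and Igfbp5 at 0.11 (−0.45 to 0.68) had the opposite sign, and without S18 Igfbp5 was at −0.06. Igfbp3 ran from −0.40 without S9 to −0.18 without S8, Igfbp6 from −0.47 without S16 to −0.11 without S1, and Igf2 from 0.22 without S18 to 0.49 without S11. The interval was narrowest for Igf1r and reached furthest from 0 for Igfbp6 and Igf2.

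**Figure D3:**
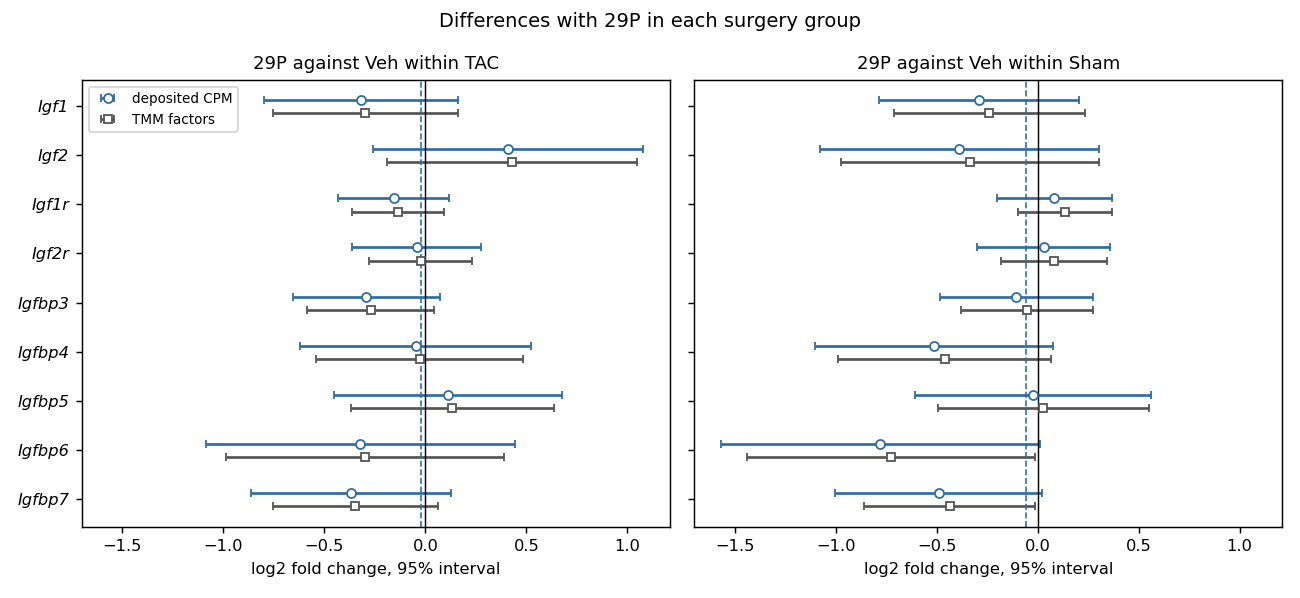
Log2 fold change of each member with its 95% interval (limma) in 29P against Veh mice within TAC and within Sham, from deposited CPM (circles) and with TMM factors (squares). Open symbols have an adjusted p above 0.05, and the dashed line is the median of all genes tested. No symbol is filled.

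Within Sham mice no member was called either (0.00617% of all genes tested were, 1 gene outside the lists described here). At an unadjusted p of 0.05, which 7.49% of all genes reached, none passed on deposited CPM. The closest were Igfbp6, at −0.78 ± 0.38 on the log2 scale (SE, adjusted p = 0.671), and Igfbp7, at −0.49 ± 0.24, both at an unadjusted p below 0.05 with TMM factors, as were 8.48% of all genes. For both genes the lowest Sham 29P library was S14, and without it the log2 differences were −0.28 and −0.22. No member differed in its response to 29P between TAC and Sham mice at an adjusted p of 0.05 (0.00617% of all genes did), nor at an unadjusted p of 0.05 (2.84%). Of the members Igf2 came closest, at an interaction of 0.80 ± 0.46 on the log2 scale (SE, adjusted p = 0.998), which was 0.30 without S18, S19 and S20.

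The atrial libraries carried a pattern of their own. Igf2, Igfbp4 and Igfbp5 in S19 and S20 were above the other 3 Sham Veh libraries, by 0.77, 0.89 and 0.58 on the log2 scale, and in S18 they were above the other 5 TAC 29P libraries, by 1.14, 0.75 and 1.05. Igf1 and Igfbp6 were above the rest in Sham Veh only, and Igf1r, Igf2r, Igfbp3 and Igfbp7 in neither group. The fibroblast markers also moved with these libraries, with a summed level of 2128 and 2501 CPM in S19 and S20 against 1354 to 1798 CPM in the other Sham Veh libraries, and of 3822 CPM in S18, the highest of TAC 29P. The endothelial markers were lower in them, with a sum of 635 and 791 CPM in S19 and S20 against 813 to 1061 CPM in the other Sham Veh libraries, and of 944 CPM in S18 against 1114 to 1337 CPM in the other TAC 29P libraries. The part of these cell types in the levels of Igf2, Igfbp4 and Igfbp5 was not tested, and no test of these libraries against the rest was made.

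Among the 14053 genes with a mean of at least 1 CPM, the one whose pattern was most like that of Igf2 was H19, the maternally expressed noncoding RNA next to Igf2 in the same imprinted domain. Pearson's r of log2 CPM was 0.96 over the 17 libraries, 0.97 for deviations from the group means and 0.91 without S18, S19 and S20. Both genes were read in the same libraries, which differ in depth and in marker levels, so r is given as a description. H19 was at 10.9, 6.89, 10.6, 41.6 and 21.9 CPM in Sham Veh libraries S5, S6, S13, S19 and S20, at 21.3, 3.81 and 8.51 CPM in Sham 29P libraries S4, S14 and S15, and at 5.24, 6.99 and 5.33 CPM in TAC Veh libraries S2, S12 and S16. In the TAC 29P libraries it ran from 4.81 to 41.8 CPM. Wif1, a secreted Wnt inhibitor, came next (r = 0.91).

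**Figure D4:**
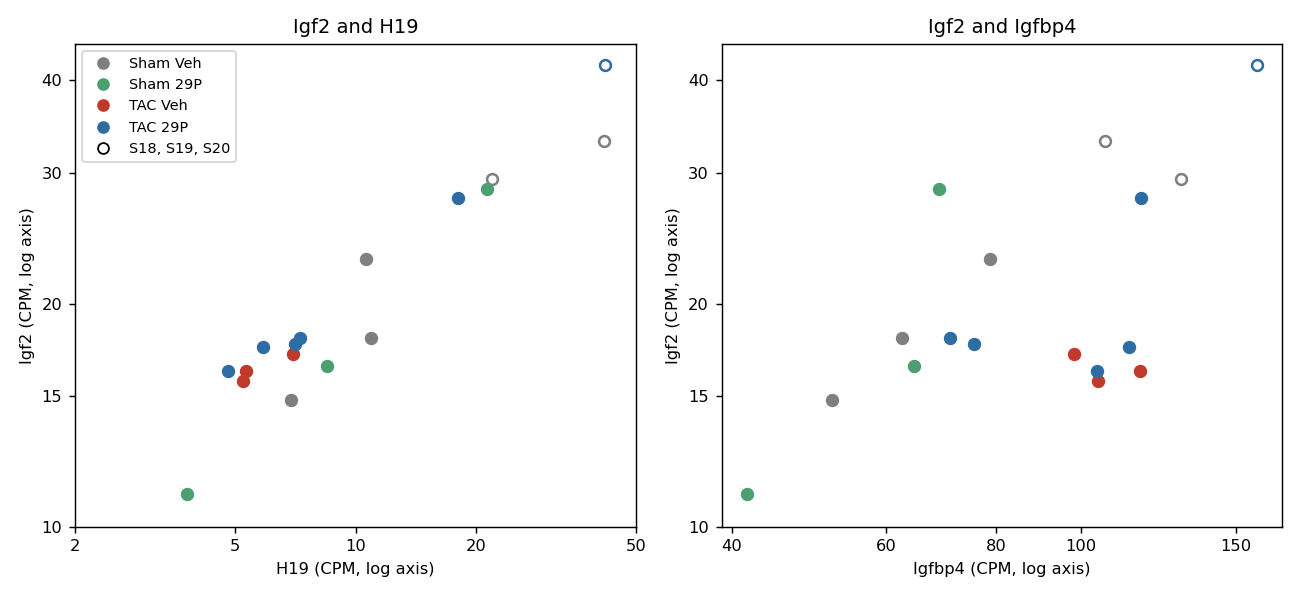
CPM of Igf2 against H19 (left) and against Igfbp4 (right) in the 17 libraries, on log axes, coloured by group, with libraries S18, S19 and S20 as open circles. The points of Igf2 against H19 spread less (r = 0.96) than those against Igfbp4 (r = 0.62), where TAC and Sham libraries overlap.

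By the same measure the other members had different closest genes. Igfbp7 was closest to Pcolce (r = 0.99), which enhances procollagen processing, to the proteoglycan gene Bgn (r = 0.99) and to Pi16 (r = 0.98), a gene of adventitial fibroblasts. Igf1 was closest to Postn (r = 0.97), the matricellular protein periostin, and to the lysosomal genes Asah1 and Atp6v1a (r = 0.97 each). Igfbp6 was closest to Lbp (r = 0.96) and Serping1 (r = 0.95), and Igf2r to Camsap1 (r = 0.98). Igf1r was closest to Lrch3, Akap13 and Gxylt1 (r = 0.95 each), Igfbp3 to App (r = 0.93), Igfbp4 to Csrp2 (r = 0.95) and Igfbp5 to Smurf2 (r = 0.93). The surgery difference itself enters these values. For deviations from the group means the closest gene to Igf1 was Alg5 (r = 0.94), and Pcolce stayed close to Igfbp7 (r = 0.94). Between members, Igf2, Igfbp4 and Igfbp5 had the highest r of deviations (0.82 to 0.83), which fell to between 0.64 and 0.69 without S18, S19 and S20.

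Other genes of the IGF pathway were described by lists. Of 11 tested genes grouped here as further IGF binding and cleavage genes, 4 rose in TAC Veh against Sham Veh mice and none fell. Beside them 22.5% of all genes were called higher, and the median log2 fold change of the list was 0.48. IGF binding by the products of the listed genes, Esm1 and Crim1 among them, was not tested. The 4 genes were Adam12 (2.01, adjusted p = 0.00559), a metalloprotease that cleaves IGF binding proteins, Esm1 (1.87, adjusted p = 0.0102), Stc1 (1.56, adjusted p = 0.00582), an inhibitor of PAPP-A, and Crim1 (0.48, adjusted p = 0.017). With TMM factors the first 3 were called higher and the protease gene Htra1 lower (5.34% of all genes were lower on that scale). The gene Pappa, which encodes PAPP-A, was at a log2 fold change of −0.09 (adjusted p = 0.901). In the CCN family of matricellular proteins, which share a domain with IGF binding proteins, 3 of 5 rose, Ccn5 by 2.44, Ccn2 by 2.06 and Ccn1 by 1.07 on the log2 scale, beside the same 22.5% of all genes, and only Ccn5 of them was called with TMM factors. Without S18, S19 and S20, Esm1 was at 1.59 (adjusted p = 0.0521), Crim1 at 0.44 (adjusted p = 0.0649) and Ccn1 at 0.64 (adjusted p = 0.117), and the other 4 genes were called.

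Of the insulin receptor and adaptor genes 3 of 11 rose and none fell, beside 22.5% of all genes called higher. Ptpn1, a phosphatase that acts on the insulin and IGF1 receptors, was at 0.85 (adjusted p = 0.0112), the adaptor Grb10 at 0.76 (adjusted p = 0.00137) and the adaptor Shc1 at 0.65 (adjusted p = 0.00704), and all 3 were called with TMM factors too, with Grb14 lower. Insr itself was at 0.08 (adjusted p = 0.633). Of 6 genes of the growth hormone axis, Socs2 (0.57, adjusted p = 0.012), which restrains growth hormone signalling, and Jak2 (0.40, adjusted p = 0.0392) rose, and with TMM factors neither did, while Ghr, the growth hormone receptor, was called lower (−0.59, adjusted p = 0.0382). Of 25 PI3K, AKT and MTOR genes 6 rose and none fell, with a median of 0.33 beside 0.35 for all genes and with 22.5% of all genes called higher. Eif4ebp1, a repressor of translation under MTOR control, led them at 0.83 (adjusted p = 0.0172), Pik3r3 was at 0.48 and Mtor at 0.41, and no gene of the list was called with TMM factors. Of 10 FOXO responsive genes Gabarapl1 (0.45) and Sesn3 (0.43) rose, and with TMM factors none did. Of 10 imprinted growth genes Mest (1.396), Meg3 (0.97) and Sgce (0.55) rose, and with TMM factors none was called. The counts of the growth hormone, FOXO and imprinted lists stand beside the same 22.5% of all genes called higher. They do not set these lists apart from other genes. Without S18, S19 and S20, Mest was at 0.91 (adjusted p = 0.0761), and Jak2, Pik3r3, Mtor, Gsk3b, Tsc1 and Sesn3 were not called either. Of the 23 genes called in these lists, Stc1, Ccn5 and Grb10 were called whichever library was left out, and the other 20 were not called without TAC Veh library S2. Igf2bp2, which encodes a protein that binds Igf2 mRNA, was at 0.84 (adjusted p = 0.176).

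**Figure D5:**
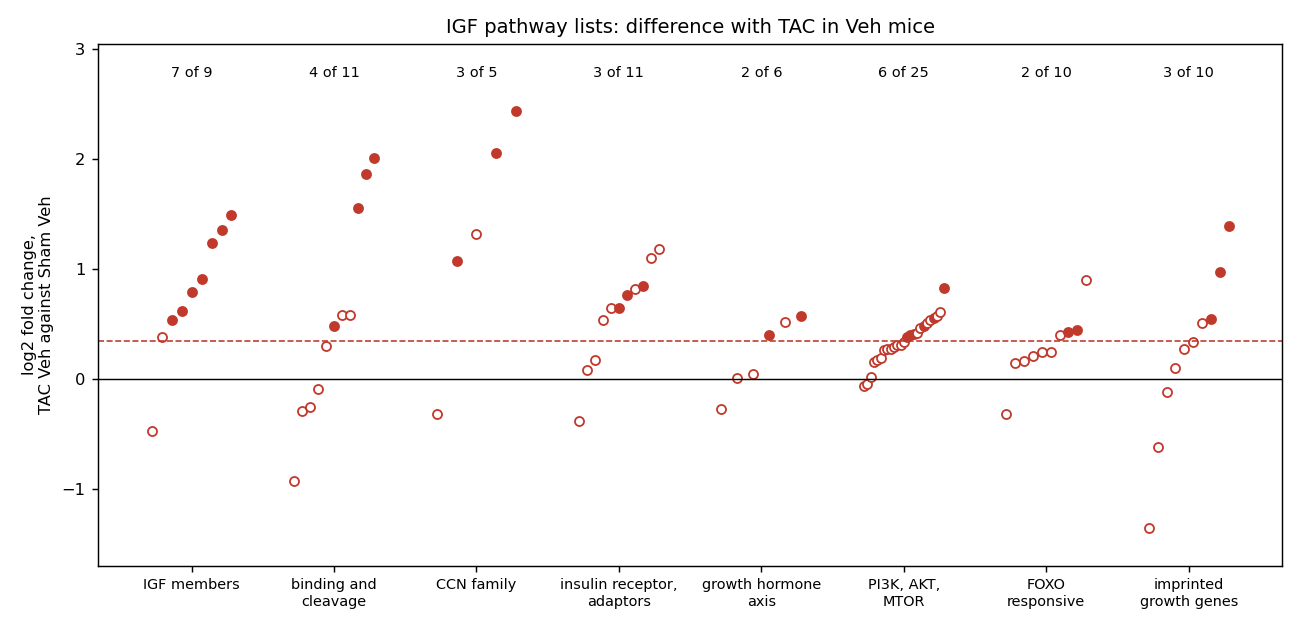
Log2 fold change of each gene in TAC Veh against Sham Veh mice for the 9 members and 7 other lists of the IGF pathway, on deposited CPM. Circles are filled where the adjusted p (limma) was at most 0.05, their count of the genes tested is printed above each list, and the dashed line is the median of all genes tested (0.35). The members had 7 of 9 filled and the PI3K, AKT and MTOR genes 6 of 25.

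In the TAC 29P against Sham 29P comparison Adam12 (2.26) and Esm1 (2.24) rose among 11 binding and cleavage genes. Of 5 CCN genes 4 rose, beside 31.4% of all genes called higher. Ghr (−0.46 on the log2 scale) and Pik3r1 (−0.68) were called lower, as were 1.12% of all genes. The call of Pik3r1 was lost without S14 or S15. In either direction, 7 of 25 PI3K, AKT and MTOR genes and 4 of 11 insulin receptor and adaptor genes were called. So were 3 of 10 imprinted growth genes, 2 of 10 FOXO responsive genes and Igf2bp2. Beside them 31.4% of all genes were called higher and 1.12% lower, so these counts do not set the lists apart from other genes. With TMM factors Adam12 was at 1.90 (adjusted p = 0.00884), Esm1 at 1.88 (adjusted p = 0.00891) and Ghr at −0.81 (adjusted p = 0.00826), and of the CCN genes Ccn5 alone was called (1.74, adjusted p = 0.0118). On deposited CPM the call of Ghr rested on Sham 29P library S14, at 202 CPM against 134 and 136 CPM in S4 and S15 and 93.4 to 139.9 CPM in TAC 29P libraries, and without S14 it was −0.26 (adjusted p = 0.196). Adam12, Esm1 and Ccn5 were called whichever library was left out, while 18 of the 24 genes called in the pathway lists were not called without S14. Within TAC, no pathway gene was called for 29P against Veh. At an unadjusted p of 0.05 (1.98% of all genes) Stc1 was at −0.78 and Socs2 at −0.32 on the log2 scale (limma, adjusted p = 1 for both). Stc1 was at 8.98, 9.15 and 14.02 CPM in TAC Veh libraries S2, S12 and S16 and at 4.11 to 11.01 CPM in TAC 29P libraries, of which S18 was the highest. Socs2 was at 70.8, 68.8 and 80.8 CPM in TAC Veh and at 49.5 to 73.2 CPM in TAC 29P libraries, again with S18 the highest and the only one to overlap.

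Markers of several cell types moved with surgery beside the members, and in bulk tissue more cells of a type and more RNA per cell cannot be told apart. In TAC Veh against Sham Veh mice 8 of 8 markers of activated fibroblasts rose, beside 22.5% of all genes, led by Cthrc1 (4.54 on the log2 scale), Thbs4 (4.40), Ltbp2 (3.97) and Cilp (3.85). Of these markers 6 were called whichever library was left out, and Cthrc1 and Comp were not called without S2. The summed level of all 8, most abundant Postn, was 138, 140.3, 148, 211 and 201 CPM in Sham Veh libraries S5, S6, S13, S19 and S20 and 2170.4, 812 and 1719 CPM in TAC Veh libraries S2, S12 and S16. It ran from 98.4 to 162 CPM in Sham 29P and from 363 to 2132 CPM in TAC 29P libraries (median 864). With TMM factors 7 of 8 were called, beside 4.17% of all genes. Library S2 had the highest sum and also the most Igf1, Igfbp6 and Igfbp7, and S1, with the lowest sum of the TAC libraries, had the least Igf1 and Igfbp6 of them.

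General fibroblast markers were called higher in 4 of 8 genes (Col1a1, Col3a1, Lum and Pdgfra), or 2 with TMM factors, with a summed level, most abundant Gsn, of 1354 to 2501 CPM in Sham Veh, 1102 to 1727 CPM in Sham 29P, 2642 to 3563 CPM in TAC Veh and 1932 to 3822 CPM in TAC 29P. Macrophage markers rose in 9 of 10 genes, led by Adgre1 (1.15), and in 2 with TMM factors, with a sum, most abundant Lyz2, of 378 to 454 CPM in Sham Veh, 278.1 to 515 CPM in Sham 29P, 573 to 889 CPM in TAC Veh and 561 to 721 CPM in TAC 29P. Endothelial markers rose in 2 of 8 genes, Cdh5 and Tek, beside 22.5% of all genes, and in none with TMM factors, with a sum, most abundant Cdh5, of 635 to 1061 CPM in Sham Veh and 1071 to 1373 CPM in TAC Veh. Mural cell markers rose in 3 of 7 genes, Cspg4, Pdgfrb and Rgs5, and in 2 with TMM factors, with a sum, most abundant Rgs5, of 912 to 1276 CPM in Sham Veh and 1219 to 1663 CPM in TAC Veh. In Veh mice these counts, and that of red cell transcripts below, stand beside 22.5% of all genes called higher, or 4.17% with TMM factors. The sum of the mesothelial markers, most abundant Wt1, was at most 14.4 CPM. No marker tested in these lists was at 0 in every library of a group. Of 8 cardiomyocyte markers none rose and 1 fell, Tnni3 by 0.54 on the log2 scale, where 1.91% of all genes were called lower, and with TMM factors 4 did, where 5.34% were. Without S2 none of the 9 macrophage, 2 endothelial and 3 mural cell markers was called, nor Lum, Pdgfra or Tnni3. Without S18, S19 and S20 Cdh5, Tek, Pdgfrb, C1qc, Csf1r and Tnni3 were not called. In TAC 29P against Sham 29P mice 6 general fibroblast, 8 activated fibroblast, 8 macrophage, 6 endothelial and 3 mural cell markers rose, beside 31.4% of all genes. Without S14, 3, 2, 4, 5 and 3 of these calls were lost, in the same order. Called cardiomyocyte markers numbered 2, with opposite signs, and both were lost without S14. The part of these cell types in the change of the members was not tested. Red cell transcripts rose with TAC in 5 of 5 genes in Veh mice, led by Hba-a1 (1.47), and in none with TMM factors or without S18, S19 and S20. None was called either when S2, S6 or S19 was left out singly. Their sum was 1018 to 2463 CPM in Sham Veh. The same 5 transcripts were lower with 29P within TAC at an unadjusted p of 0.05 (log2 fold changes of −1.25 to −1.05, most abundant Hbb-bs) and none was called after adjustment, and Postn was at −0.93. The sum of the red cell transcripts was 3082 to 4992 CPM in TAC Veh and 1036 to 4151 CPM in TAC 29P libraries, and its part in the values of the members was not tested.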

How the data were processed

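TRIzol RNA was sequenced from polyadenylated libraries (NEBNext Ultra II). The submitters' processing notes name STAR 2.3.7, Partek and mm10, and the authors deposited CPM plus 0.0001; the counting tool and strand setting are not given in the sources used here. Low values were whole multiples of a step in 78.9 to 82.2% of cases (tolerance 0.02), so counts were not restored. The log2 of deposited CPM was fitted with limma 3.58.1 (R 4.3.3; 1 mean per group, trended variance) for genes with at least 0.5 CPM in at least 3 libraries, with Benjamini-Hochberg adjustment over 16218 genes, after the fit was tested on simulated data. TMM factors trimmed 30% of log ratios and 5% of levels. Lengths and coordinates are of GENCODE vM21. Figures used matplotlib 3.10.9 (Python 3.11.15).

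The members and the lists were chosen with earlier results of these data known. List genes were named if among the 4 largest called changes (mean of at least 1 CPM) in TAC Veh against Sham Veh or at an unadjusted p of 0.05 or less for 29P within TAC. Pappa, Insr, Ghr, Pik3r1, Comp, Htra1, Grb14, Igf2bp2, Gm49394, Airn and Polr2b were named outside this rule, most after their values were seen. Unmatched symbols were not analysed here, and 1 gene that the rule names is not reported here. Alternatives were other scalings, filters, added constants, a term for the animal-number run and libraries left out.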

Additional observations from a re-analysis of the deposited data

Results flagged for a closer look

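Of 18 sets of libraries of 1 member in 1 group with 4 to 10 libraries, 1 held a library set apart from its group, and chance flags about 1 in 20 such sets. Igfbp5 in Sham Veh library S6 was at 38.7 CPM, while the next lowest library of the group was at 76.0 CPM, and on the log2 scale this gap was 0.763 of the range of the group, above the critical value of 0.71.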

How the results depend on the processing

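The rise of Igf1 and Igfbp7 with TAC kept its direction and its call in each treatment under all alternatives run. The count of members called was the result that moved. With TMM factors and with median-of-ratios factors it was 3 in Veh mice, 3 in 29P mice and 5 over both treatments, and with TMM factors without S18, S19 and S20 it was 3 in Veh and 3 in 29P mice. In 29P mice it was 5 with totals that left out mitochondrial-encoded genes and 2 with a term for the animal-number run, and these causes were not tested. The share of all genes called is not given for these alternatives, for median-of-ratios factors or for single omissions. Their counts therefore do not set the members apart from other genes. When single libraries were left out, the count ranged from 3 to 7 in Veh mice, from 2 to 8 in 29P mice and from 7 to 8 over both, and it was 0 for each 29P comparison. With TMM factors, calls of the other pathway lists went from 23 to 10 in Veh mice and from 24 to 13 in 29P mice. With TMM factors and S18, S19 and S20 left out as well, they were 8 and 14. Of calls over all genes tested, the share that was higher fell from 92.2% to 43.9% in Veh mice and from 96.6% to 53.8% in 29P mice with TMM factors.

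Signs turned only for members that were not called. Igf2 in TAC 29P against Sham 29P mice was −0.031 with TMM factors, −0.035 with median-of-ratios factors and −0.22 with TMM factors without S18, S19 and S20, and over both treatments it was 0.017 with the run term. Igfbp5 for 29P within Sham was 0.029 with TMM factors, 0.032 with median-of-ratios factors, 0.023 without mitochondrial-encoded genes, 0.29 with the run term, 0.21 without S18, S19 and S20 and 0.26 with TMM factors as well. With the run term Igf1, Igf2 and Igf2r within Sham were 0.030, 0.034 and −0.010, and the interactions of Igfbp5, Igfbp6 and Igfbp7 were −0.28, −0.057 and −0.26. Without S18, S19 and S20, Igfbp5 within TAC was −0.062 (−0.037 with TMM factors), Igf2r within Sham −0.11 (−0.061), and the interactions of Igf2r, Igfbp4 and Igfbp5 were 0.050, −0.016 and −0.27 (0.026, −0.040 and −0.29). When single libraries were left out, the sign also turned for Igf2 over both treatments (−0.24 to 0.11), for Igfbp4 (−0.17 to 0.059) and Igfbp5 (−0.062 to 0.21) within TAC, for Igf1r (−0.012 to 0.15), Igf2r (−0.080 to 0.15), Igfbp3 (−0.18 to 0.032) and Igfbp5 (−0.25 to 0.066) within Sham, and for the interactions of Igf1 (−0.31 to 0.19), Igf2r (−0.19 to 0.037), Igfbp5 (−0.039 to 0.37), Igfbp6 (−0.045 to 0.73) and Igfbp7 (−0.15 to 0.39). No paired analysis was possible because each replicate number belongs to 1 group only, and the run of adjoining animal numbers, which crosses groups, was fitted as a term instead. Leaving out S18, S19 and S20, and TMM factors and single omissions for the other lists, were alternatives chosen after seeing the data. Sham 29P and TAC Veh hold 3 libraries each, which limits the precision of every comparison.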
